A study of Canis lupus familiaris with 33 samples.

Results

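The multi-exon genes of dog chromosome 20 are described here: how far their RNA levels as a group were shifted in each oligodendroglioma, in both preservations and along the chromosome. Within the chromosome the genes were chosen by position and structure, apart from a gene left out by name. They are the genes that the deposited count table places on chromosome 20 of the CanFam3.1 assembly, with at least 2 distinct exons and a span under 500 kb. ENSCAFG00000014040, a chromosome 20 gene with a large tumour difference, was left out. This gave 954 of the 30951 genes of the table, and of 1146 on the chromosome. Left out beside it were 183 single-exon genes and 8 genes of 500 kb or longer. The chromosome itself was selected on the tumour against control differences of these same libraries. Tumour against control values are therefore given as a description with no test, and they support nothing on their own.

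Total RNA was sequenced from 33 libraries of 25 dogs, taken at necropsy from oligodendroglioma or from brain described as healthy, here called control. The FFPE (formalin-fixed, paraffin-embedded) tumours came from 11 dogs, 4 Boxers, 6 French Bulldogs and 1 Pomerian. Of these tumours, 9 were of grade III and 2 of grade II. The FFPE labels gave an age for 9 of the dogs, from 4.7 to 12 years. For dog 60461 the fresh-frozen label alone gave an age, 8.8 years. The 10 FFPE controls were 4 Boxers, 5 French Bulldogs and 1 Bolonka Swetna, and the 5 ages given ran from 2 to 8 years. The 6 fresh-frozen tumours (5 of grade III and 1 of grade II) came from 3 French Bulldogs, 1 Boxer, 1 Border Terrier and 1 Pomerian, aged 4.7 to 10 years where given. The 6 fresh-frozen controls came from 2 French Bulldogs and 1 dog each of Hovawart, Bolonka Swetna, Berner sennenhund and Mongrel, aged 2.8 to 10.2 years where given. No treatment or engineered allele was named for any group, and fresh-frozen controls differed from fresh-frozen tumours in breed. Dogs 60127, 60461, 60636, 60679 and 60749 gave tumour in both preservations, and dogs 60126, 60460 and 60462 gave control brain in both. Because the files do not pair identifiers with gene names, the labelled tissue could not be checked against cell type markers.

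Oligodendroglioma is a glial tumour whose cells resemble oligodendrocyte lineage cells, and in dogs it is seen mostly in short-skulled breeds such as Boxers and French Bulldogs. Gliomas often gain or lose whole chromosomes or arms, and a median over many neighbouring genes is a common coarse readout of RNA from such a block. That median also moves with cell makeup, RNA quality and library preparation, and no DNA was analysed here. In bulk tissue, fewer cells of a type and less RNA per cell cannot be told apart.

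Total counts per library ran from 406406 to 32584840, both in FFPE controls. They were 1752162 to 12501029 in FFPE tumours, 9765907 to 25168080 in fresh-frozen tumours and 15255966 to 26726025 in fresh-frozen controls. After the filter on low counts, 625 of the 954 genes were measured in FFPE tissue and 682 in fresh-frozen tissue. Of these, 623 were measured in both, 2 in FFPE tissue alone and 59 in fresh-frozen tissue alone, and 270 passed in neither. Only 2 of the 954 genes had no count in any library.

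Chromosome 20 is rich in genes. The 954 genes lay between positions 25846 and 58095421, 505 on the plus strand and 449 on the minus strand. They had a median of 8 exons, against 6 for the genes of the other autosomes chosen by the same rule, and a median exonic length of 1754 bp against 1667 bp. Their median span was 11.9 kb against 17.7 kb. The largest span included was 487.5 kb and the smallest left out 503.7 kb, while 119 genes were included with just 2 exons. A gene's neighbours were counted as the other multi-exon genes with their middle within 0.5 Mb of its own. The genes of chromosome 20 had a median of 30 neighbours, and those of the other autosomes a median of 13. When all genes were put in 5 classes of neighbour number, set on the other autosomes, 62.7% of the chromosome 20 genes fell in the densest class (over 24 neighbours), the highest share of the 38 autosomes. Chromosome 9 came next with 54.9%, and over the other autosomes together the share was 19.6%. In windows of 5 Mb the gene number was uneven. The windows from 10 to 35 Mb held 19 to 32 genes each, 127 in all, and the other 7 windows held 63 to 162 genes each, 827 in all.

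The shift of a library is the median over the measured genes of the difference in log2 CPM (log2 of counts scaled to a common library size) from the mean of the controls of the same preservation, minus the same median over the other autosomes. For a control, the mean was taken over the remaining controls. A shift of 0 means that the chromosome 20 genes moved as the rest of the genome did. Among FFPE tumours the shift was highest in dog 60749, at 0.93. It was 0.53 in dog 60792, 0.50 in dog 60177, 0.33 in dog 60636, 0.29 in dog 43917, 0.19 in dog 60461 and 0.12 in dog 44331. The remaining FFPE tumours had shifts of 0.02 in dog 60679, -0.22 in dog 51234, -0.36 in dog 50416 and -0.56 in dog 60127.

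The FFPE groups overlapped, with 7 of 11 tumours within the control range. The FFPE tumours had a mean shift of 0.16 ± 0.43 (SD, n = 11) and the FFPE controls one of 0.01 ± 0.26 (SD, n = 10), with a range of -0.56 to 0.37. Of the 11 tumours, 3 lay above every control and 1, that of dog 60127, below every control by a very small margin. The highest control, that of dog 50315, had the smallest total of all libraries, and without it 5 tumours lay above every control. The difference of the means over all FFPE libraries was 0.15, smaller than either SD, and it was 0.07 without the tumour of dog 60749. Among the dogs with FFPE tissue alone it was 0.04, over 6 tumours and 7 controls.

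In fresh-frozen tissue the shifts were 0.71 in the tumour of dog 60749, 0.66 in dog 60631, 0.58 in dog 60679, 0.31 in dog 60461, 0.20 in dog 60636 and -0.18 in dog 60127. The controls lay at 0.20 (dog 60460), 0.16 (dog 60459), 0.14 (dog 60629), 0.05 (dog 60516), -0.27 (dog 60462) and -0.30 (dog 60126). Thus 5 of 6 tumours lay above every control, dog 60636 by a very small margin, and the tumour of dog 60127 lay inside the control range. The mean was 0.38 ± 0.34 (SD, n = 6) in tumours and -0.004 ± 0.23 (SD, n = 6) in controls, a difference of 0.38. In the tumour of dog 60679, 79.0% of the measured chromosome 20 genes were above the control mean, and in that of dog 60127 41.1% were.

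Among FFPE controls the shift rose with the level of the gene-dense regions of the other autosomes. The FFPE control of dog 60462, lowest on chromosome 20 at -0.56, was also lowest for the densest class of genes on the other autosomes, at -0.60. The FFPE control of dog 50315, highest on chromosome 20 at 0.37, was highest there too, at 0.53, and it had the smallest total of all libraries. Across the 10 FFPE controls both values correlated with a Pearson r of 0.96 (permutation p = 1e-05, the smallest that 100000 resamples can give, and adjusted p = 2e-05 over 2 groups) and a Spearman rho of 0.98 (permutation p = 4e-05). Without the 2 libraries farthest from the median r was 0.98. Across the 11 FFPE tumours, the other group of that adjustment, r was 0.83 and rho 0.79, with r = 0.72 without the 2 farthest libraries. The tumour values are a description, since the chromosome was selected on tumour differences. Both values of a library subtract the same median over the other autosomes, which can raise r by itself. The size of that part was not tested. Fresh-frozen libraries formed 2 clusters on this measure, and no correlation was computed over them.

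**Figure D1:**
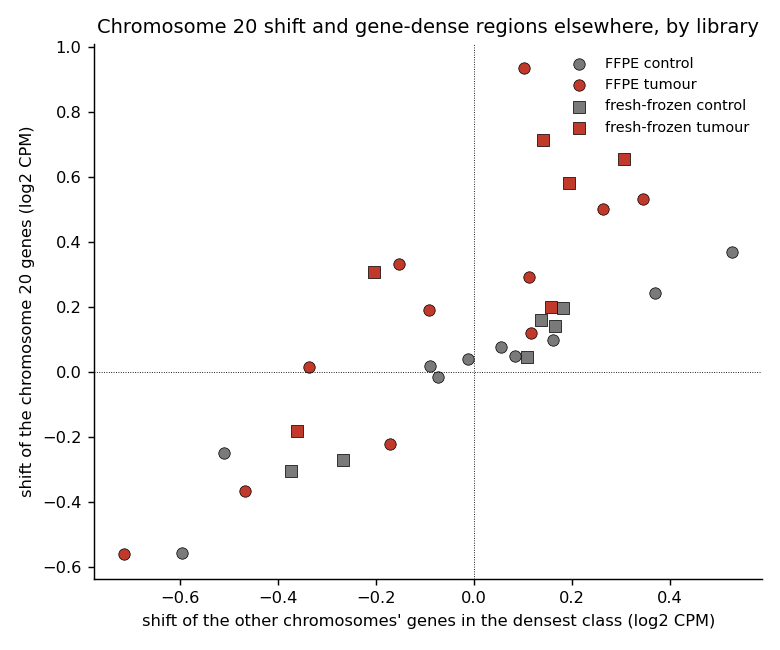
Shift of the chromosome 20 genes (vertical axis, log2 CPM) against the shift of the other autosomes' genes in the densest class (horizontal axis, log2 CPM), a point for each of 33 libraries. Circles are FFPE and squares fresh-frozen libraries, tumours in red and controls in grey. The controls form a rising band (r = 0.96 over the FFPE controls), and most tumours lie above it, that of dog 60749 highest at 0.93.

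A second measure was added after the data were seen. Each chromosome 20 gene was centred on the genes of the other autosomes in its own class of neighbour number before the median was taken. This density-centred shift had a much smaller spread among controls, 0.01 ± 0.07 (SD, n = 10) in FFPE tissue and 0.004 ± 0.08 (SD, n = 6) in fresh-frozen tissue. The part of gene density, or of what moves with it, in the tumour shifts was not tested.

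On this measure 7 of 11 FFPE tumours lay above every control, against 3 of 11 on the plain shift. In fresh-frozen tissue it was 5 of 6 on both measures. The measure was added after the shifts were seen, so these counts are a description. In FFPE tissue the density-centred shift was 0.90 in dog 60749, 0.39 in dog 60636, 0.33 in dog 60177, 0.29 in dog 60792, 0.25 in dog 60679, 0.24 in dog 43917 and 0.23 in dog 60461. These 7 tumours lay above the highest FFPE control, which was at 0.09. The other 4 were at 0.06 (dog 44331), -0.05 (dog 50416), -0.11 (dog 51234) and -0.14 (dog 60127), and none lay below the lowest control at -0.17. The mean was 0.22 ± 0.29 (SD, n = 11), 0.20 above the controls, or 0.14 above them without dog 60749. Among the dogs with FFPE tissue alone the means were 0.13 in 6 tumours and 0.03 in 7 controls. Among the dogs with both preservations they were 0.33 in 5 tumours and -0.04 in 3 controls.

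Fresh-frozen tumours reached 0.60 in dog 60749, 0.47 in dogs 60631 and 60679, 0.42 in dog 60461 and 0.14 in dog 60636, all above the highest control at 0.09. The tumour of dog 60127, at 0.01, lay among the controls. The mean of 0.35 ± 0.23 (SD, n = 6) was 0.35 above that of the controls. The tumours thus differed widely from each other: dog 60749 was highest and dog 60127 lowest in each preservation, on either measure.

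**Figure D2:**
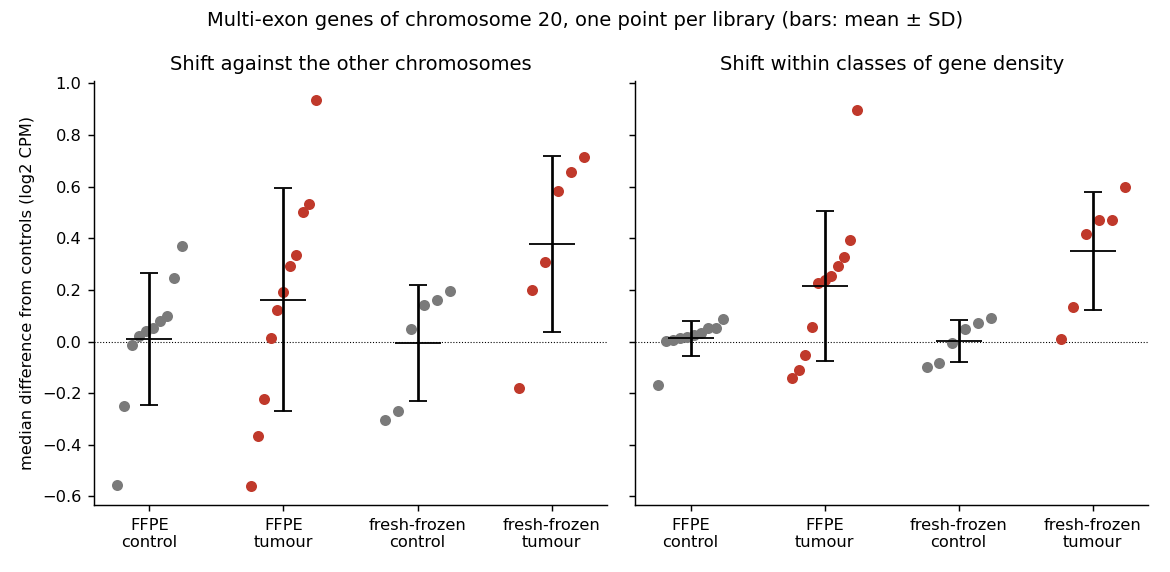
Shift of the chromosome 20 genes in each library (vertical axis, median difference from controls in log2 CPM), for 4 groups, with the mean and SD as bars. The left panel is centred on all other autosomes and the right panel within classes of gene density; controls draw together in the right panel, where 7 of 11 FFPE tumours and 5 of 6 fresh-frozen tumours lie above every control.

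The fresh-frozen libraries of dogs 60126, 60127, 60461 and 60462 stood apart. They had the highest totals, 24458306 to 26726025 counts against 9765907 to 19433146 in the other 8, and the densest class of genes on the other autosomes lay at -0.37 to -0.20 in them against 0.11 to 0.31. No label names a batch that separates them, and each set held tumours and controls. In FFPE tissue too, dogs 60127, 60462 and 60126 were the 3 lowest libraries for that class of genes, at -0.71, -0.60 and -0.51, while dog 60461 was at -0.09. Within these 4 libraries the shift was 0.31 and -0.18 in the tumours and -0.30 and -0.27 in the controls. Within the other 8 it was 0.20 to 0.71 in 4 tumours and 0.05 to 0.20 in 4 controls, a difference of 0.45 when these were analysed alone, and the density-centred difference was 0.40. Tumours lay above controls of their own set in both sets, and the part of the sets in the pooled value was not tested.

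Along the chromosome, tumours lay above the controls in windows at several places. In fresh-frozen tissue the density-centred shift of the window from 0 to 5 Mb was 0.59 ± 0.34 (SD, n = 6) in tumours and -0.23 to 0.11 in controls, and 6 of 6 tumours lay above every control. The windows from 35 to 40 Mb and from 50 to 55 Mb also had 6 of 6 tumours above every control, at 0.47 ± 0.27 and 0.45 ± 0.28 (SD, n = 6). In the windows from 40 to 45 Mb and from 45 to 50 Mb 5 of 6 tumours did, at means of 0.34 and 0.36. The end of the chromosome, from 55 Mb on, was less distinct, with 3 of 6 tumours above every control and a mean of 0.24. On the plain shift 6 of 6 tumours lay above every control from 0 to 5 Mb, and 5 of 6 from 35 to 40 Mb and from 50 to 55 Mb.

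The windows from 10 to 25 Mb gave small values. There the fresh-frozen tumour mean exceeded the control mean by 0.03 to 0.07 per window, with 1 or 2 of 6 tumours above every control. These windows rest on 8 to 17 measured genes each. The other 2 sparse windows had larger differences, 0.21 from 25 to 30 Mb and 0.32 from 30 to 35 Mb, each with 4 of 6 tumours above every control. The difference from 30 to 35 Mb exceeded that of the gene-rich windows from 5 to 10 Mb, 0.14 with 4 of 6 tumours above, and from 55 Mb on, 0.23. Over all windows from 10 to 35 Mb together, the density-centred shift ran from -0.06 to 0.30 in fresh-frozen tumours, and over the gene-rich windows from 0.01 to 0.65. It was larger in the gene-rich windows in 6 of 6 fresh-frozen tumours and 8 of 11 FFPE tumours, and also in 4 of 6 fresh-frozen and 7 of 10 FFPE controls. The sparse windows held 60 measured genes in FFPE and 67 in fresh-frozen tissue.

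In FFPE tissue the same gene-rich windows did not stand out equally. The window from 35 to 40 Mb had a density-centred shift of 0.41 ± 0.26 (SD, n = 11) in tumours, positive in every tumour at 0.15 to 1.04, and 8 of 11 tumours lay above every control. On the plain shift this window ran from -0.39 to 1.14, with 8 of 11 tumours above every control, dog 50416 at -0.04 and dog 60127 at -0.39, below every control. From 50 to 55 Mb 7 of 11 tumours lay above and 1 below every control on the density-centred measure, with a mean of 0.25. On the plain shift 1 lay above and 1 below there. From 0 to 5 Mb 5 lay above and 2 below, with a mean of 0.25 ± 0.49 (SD, n = 11), and on the plain shift 7 lay above and 0 below. The window from 20 to 25 Mb had the most FFPE tumours above every control, 9 of 11 at a mean of 0.35 (7 of 11 on the plain shift), but it rests on 15 genes, and in fresh-frozen tissue 1 of 6 tumours was above. From 25 to 30 Mb the FFPE tumour mean was -0.23 ± 0.53 (SD, n = 11) over 10 genes, with 1 tumour above and 2 below every control.

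**Figure D3:**
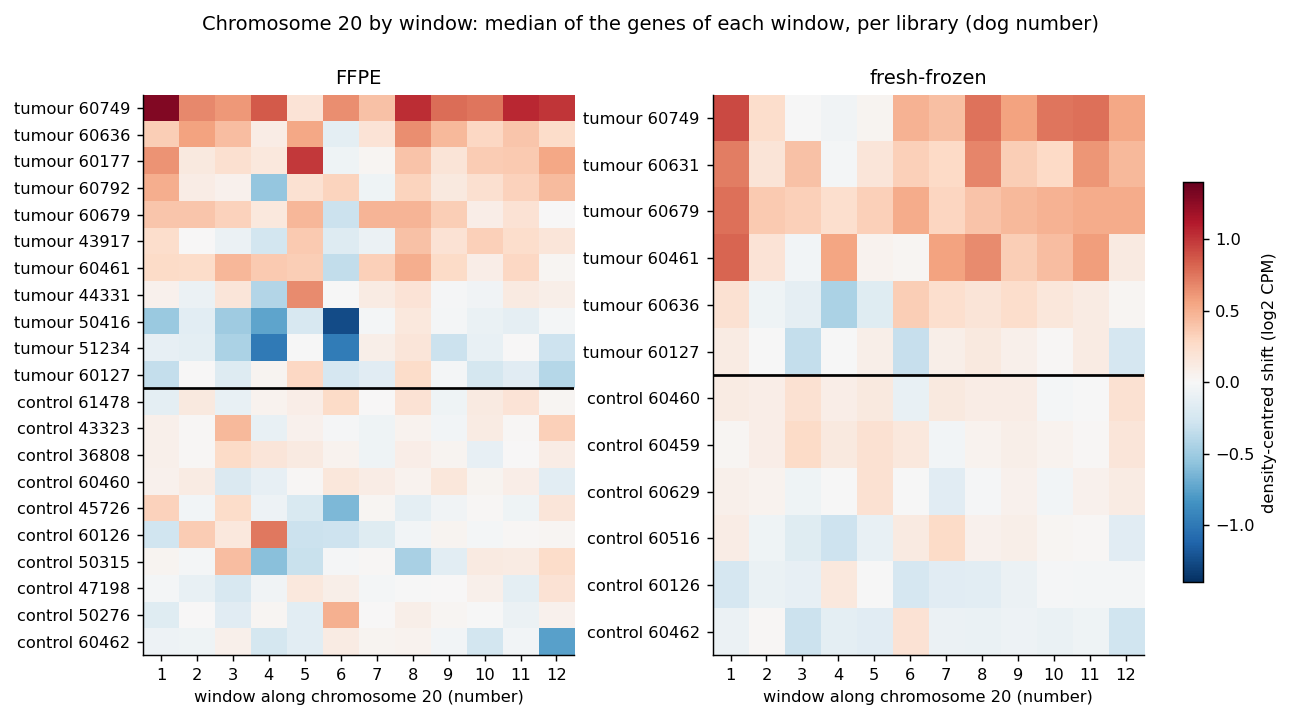
Density-centred shift (colour, log2 CPM) of the genes of each of 12 consecutive windows of 5 Mb along chromosome 20 (columns), in each library (rows, dog numbers; tumours above the line, controls below it). FFPE libraries are on the left and fresh-frozen on the right; the tumour of dog 60749 is above every control in all 12 FFPE windows, and the windows numbered 1, 8 and 11 are above every control in 6 of 6 fresh-frozen tumours.

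The 5 tumours held in both preservations were compared window by window. In dog 60749, 9 of 12 windows lay above every control in both preservations on the density-centred measure: 0 to 10 Mb and everything from 25 Mb on. The window from 0 to 5 Mb was its highest, at 1.30 in FFPE and 0.93 in fresh-frozen tissue. In dog 60679, 7 windows were above every control in both preservations, from 0 to 10, 20 to 25, 30 to 45 and 50 to 55 Mb. Its plain shift was 0.02 in FFPE and 0.58 in fresh-frozen tissue, and its density-centred shift 0.25 and 0.47.

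In dog 60636, 5 windows were above every control in both preservations, from 0 to 5 Mb and from 35 to 55 Mb. In dog 60461, 4 were, from 30 to 45 Mb and from 50 to 55 Mb. In dog 60127 the window from 35 to 40 Mb alone was, and its density-centred shift was -0.14 in FFPE and 0.01 in fresh-frozen tissue. On the density-centred measure the window from 35 to 40 Mb was therefore above every control in both preservations in 5 of 5 tumours. On the plain shift it was in 4 of 5, since in dog 60127 it lay at -0.39 in FFPE tissue, below every control, and at -0.14 in fresh-frozen tissue. No window of these 5 tumours lay below every control in both preservations, on either measure. Among the control dogs, 60126 and 60460 had 1 window each above every other control in both on the density-centred measure, and 60462 had 0. On the plain shift dog 60126 had 1 such window and dogs 60460 and 60462 had 0. Dog 60462 had 2 windows below every other control in both preservations on the plain shift.

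Across the 12 windows, the density-centred values of both preservations correlated with an r of 0.66 in dog 60749, 0.45 in dog 60127, 0.36 in dog 60461, -0.14 in dog 60636 and -0.23 in dog 60679. The windows share libraries and differ in gene number, so these are descriptions. In the control dogs that r was 0.69 in dog 60126, 0.50 in dog 60462 and -0.61 in dog 60460. The order of the windows was thus similar in some dogs and not in others, in tumour and in control brain. The density-centred shift of the whole chromosome had the same sign in 4 of the 5 tumours.

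**Figure D4:**
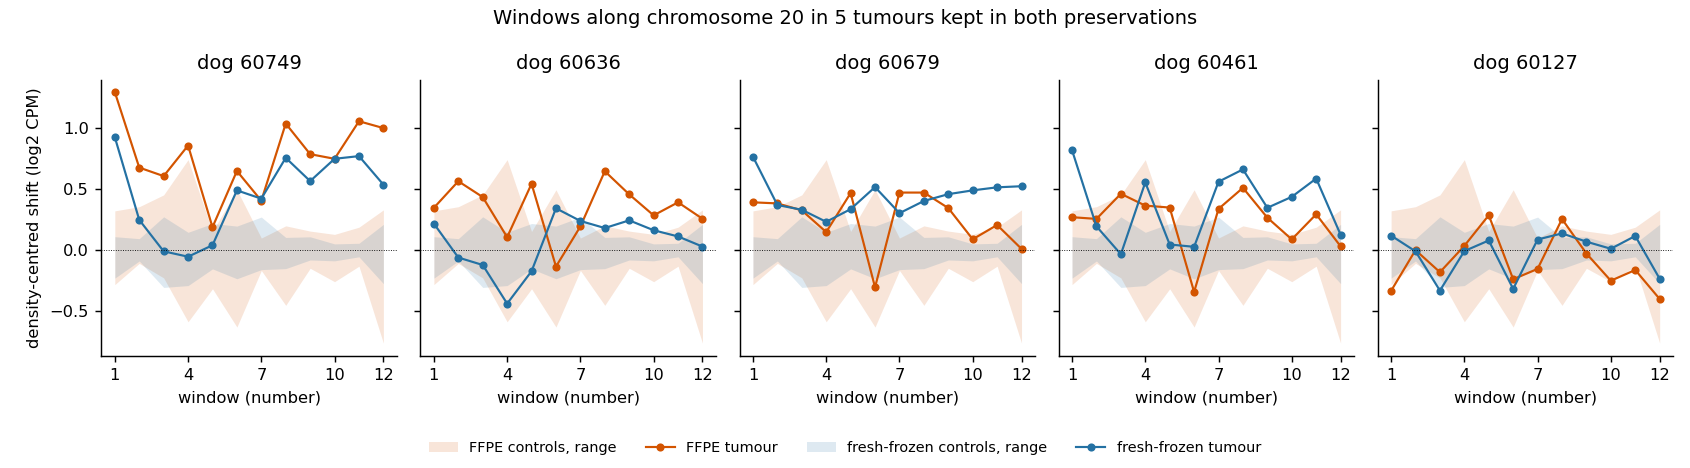
Density-centred shift (vertical axis, log2 CPM) by window along chromosome 20 (horizontal axis, 12 windows of 5 Mb in order) in the 5 tumours sequenced from both FFPE (orange) and fresh-frozen (blue) tissue, with the range of the controls of each preservation shaded. Dog 60749 leaves the shaded ranges in 9 windows in both preservations and dog 60127 in 1.

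Preservation itself was then compared within the 8 dogs that gave both. Per dog, the median over the chromosome 20 genes of FFPE minus fresh-frozen log2 CPM, less the same median over the other autosomes, was 0.31 in the tumour of dog 60749, 0.18 in dog 60636, 0.01 in dog 60461, -0.16 in dog 60127 and -0.45 in dog 60679. In control brain it was 0.06 in dog 60126, -0.11 in dog 60460 and -0.22 in dog 60462. The mean was -0.05 ± 0.24 (SD, n = 8), positive in 4 of 8 dogs, and did not differ from 0 beyond the spread (2-sided exact sign-flip permutation p = 0.609, adjusted p = 0.667 over 4 tests of single values). This does not show that both preservations give the same value.

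Gene by gene, edgeR's quasi-likelihood test called 8 of 736 chromosome 20 genes higher and 1 lower in FFPE than in fresh-frozen tissue of the same dogs, at an adjusted p under 0.05. This fit held tissue and preservation and did not pair the 2 libraries of a dog. Over all genes 2.81% were called higher and 0.135% lower, and on chromosome 20 1.09% and 0.136%. Of the 13895 genes of the other autosomes chosen by the same rule, 0.777% were called higher and 0.137% lower, so the order of the higher shares depends on the genes compared. With the dog as a block, 15 chromosome 20 genes (2.04%) were called higher and 1 (0.136%) lower. Over all genes the block gave 3.34% higher and 0.491% lower, and over the same-rule genes of the other autosomes 1.3% and 0.497%. Differences between these shares were not tested. The count ran from 1 to 15 when each dog was left out, and it was 1 without dog 60679 and 15 without dog 60749. Shares over all genes were not taken with a dog left out. The effect of tumour did not differ detectably between preservations for any gene: edgeR called 0 of 688 chromosome 20 genes for the interaction of tissue and preservation (0% of all 15714 genes), and 27 of the 688 had an unadjusted p below 0.05. The count was 0 with DESeq2 too. The median interaction over the chromosome 20 genes was -0.13 on the log2 scale (FFPE minus fresh-frozen), against 0 over all genes.

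Whether dogs kept their place between preservations was also tested, and the correlation did not pass after adjustment. The sets of libraries described above each hold 4 of the 8 dogs, too few for a correlation within a set. With each value taken as its deviation from the mean of its tissue, the 8 pairs gave a Pearson r of 0.79 (permutation p = 0.0199 over all pairings, adjusted p = 0.0798 over the 4 tests of single values) and a Spearman rho of 0.71 (permutation p = 0.0576). The pairs of deviations had the same sign in 4 of 8 dogs. Without dogs 60127 and 60749, the lowest and the highest tumour, r was 0.27. On the density-centred measure r was 0.73 (permutation p = 0.0361, adjusted p = 0.144), and -0.28 without the same dogs. Leaving out the tumour of dog 60679 alone gave r = 0.92 (adjusted p = 0.0206 by permutation).

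Breed was compared among FFPE libraries. The 4 Boxer tumours had shifts of 0.53, 0.29, 0.19 and -0.36, a mean of 0.16 ± 0.38 (SD, n = 4), and the 6 French Bulldog tumours ran from -0.22 to 0.93, a mean of 0.28 ± 0.41 (SD, n = 6). The difference of -0.12 was within the spread (2-sided exact permutation p = 0.667, adjusted p = 0.667), and it was 0.06 without the Boxer of dog 50416 and 0.01 without the French Bulldog of dog 60749. In FFPE controls the 4 Boxers averaged 0.12 ± 0.17 (SD) and the 5 French Bulldogs -0.03 ± 0.31 (SD). That difference of 0.15 was also within the spread (2-sided exact permutation p = 0.476, adjusted p = 0.667), and it was 0.01 without the French Bulldog of dog 60462. On the density-centred measure the differences were -0.13 in tumours and 0.05 in controls (exact permutation, adjusted p = 0.562 for both). The 2 grade II tumours did not lie together: dog 51234 had a shift of -0.22, and dog 60679 one of 0.02 in FFPE and 0.58 in fresh-frozen tissue.

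Single genes were tested against control in each preservation over all genes, and the counts are given as a description. In FFPE tissue 86 of 625 chromosome 20 genes were called higher in tumour (13.8%) and 41 lower (6.56%), beside 10.1% and 11.1% of all genes tested. In fresh-frozen tissue 205 of 682 were called higher (30.1%) and 46 lower (6.74%), beside 18.3% and 12.2% of all genes. The chromosome was chosen on this contrast, so nothing is read from these shares. The FFPE count of 127 was 34 without the 8 dogs of both preservations, 18 higher and 16 lower. The fresh-frozen count of 251 was 161 without dogs 60126, 60127, 60461 and 60462 and 338 with their set as a covariate. Shares over all genes were not taken in these alternative fits, so the changes in count are not read as particular to chromosome 20. The median log2 fold change over the chromosome 20 genes was 0.23 in FFPE (0.02 over all genes) and 0.48 in fresh-frozen tissue (0.10 over all genes). The groups of the 2 fits overlap in dogs, and 81 genes were called higher in both fits, or 94.2% of those called in FFPE and 41.8% of the 194 called in fresh-frozen tissue among the genes measured in both. For lower genes 21 were shared, 51.2% of each list, and 0 genes were called in opposite directions. Over all 13044 genes measured in both, 1121 were called higher in both fits, 83.6% of the FFPE and 44.9% of the fresh-frozen list, 851 lower, 58% and 52.3%, and 1 in opposite directions. Nothing is read from these overlaps.

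The called genes were spread along the chromosome. Of the 81 genes called higher in both, 18 lay from 40 to 45 Mb, 13 from 45 to 50 Mb, 12 from 35 to 40 Mb, 8 from 5 to 10 Mb, 7 each from 50 to 55 Mb and from 55 Mb on, and 5 each from 0 to 5 Mb and from 30 to 35 Mb. Among the remaining windows, 25 to 30 Mb held 0. The measured genes in FFPE tissue numbered 99, 105, 77, 51, 97, 95, 41 and 20 in the 8 windows listed, in the same order. The counts per window are therefore not shares, and no window is read as richer in called genes. In fresh-frozen tissue the window with the largest median log2 fold change was 0 to 5 Mb, at 0.66 over 45 genes, 18 of them called higher and 3 lower. The next was 50 to 55 Mb, at 0.62 over 110 genes, 38 higher and 7 lower. From 10 to 15 Mb the median was -0.03 over 8 genes.

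Medians by strand and by exon number lay close together in fresh-frozen tissue. Genes of both strands had FFPE medians of 0.24 (plus) and 0.22 (minus) and fresh-frozen medians of 0.47 and 0.50. With 2 to 5, 6 to 12 and over 12 exons the fresh-frozen medians were 0.52, 0.46 and 0.49, and the FFPE medians 0.11, 0.23 and 0.28. The fewest-neighbour classes gave smaller fresh-frozen medians, 0.25 and 0.13, than the 3 denser ones, 0.51 to 0.55. In FFPE tissue the medians from the fewest-neighbour to the densest class were 0.14, 0.14, 0.25, 0.40 and 0.23. These differences among classes were not tested.

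The genes with the largest changes shared by both preservations are given by identifier, 2 in each direction. They were ranked by the smaller of their 2 log2 fold changes among 81 higher and 20 lower genes with an average log2 CPM of at least 2, so their calls follow from the choice. ENSCAFG00000018934 (CanFam3.1 chromosome 20, 54859947 to 54889907, minus strand, 18 exons) had levels of 6.77, 6.15, 4.80, 4.73, 3.91 and 1.99 log2 CPM in the fresh-frozen tumours of dogs 60631, 60749, 60461, 60636, 60127 and 60679. In fresh-frozen controls it lay between 1.95 and 3.26, so 5 of 6 tumours were above every control. In FFPE tissue the tumours ran from 0.79 to 6.34 with a median of 4.52, and 7 of 11 tumours were above every control. The FFPE controls ran from -1.61 to 3.74 with a median of 1.71, and the lowest, that of dog 50315, had 0 counts. The log2 fold change was 3.004 ± 0.61 (SE) in FFPE and 3.07 ± 0.64 (SE) in fresh-frozen tissue, the latter 2.42 without the tumour of dog 60631.

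ENSCAFG00000018422 (52724651 to 52776884, minus strand, 65 exons) was above every control in 6 of 6 fresh-frozen tumours. Its levels there were 6.29 in dog 60749, 4.19 in dog 60679, 3.26 in dog 60631, 2.88 in dog 60636, 2.38 in dog 60461 and 1.65 log2 CPM in dog 60127, and the controls lay between -1.27 and 0.85, at 7 to 27 counts. In FFPE tissue the tumours ran from 1.97 to 6.39 (median 4.44) and the controls from -0.49 to 4.11 (median 2.61), and 8 of 11 tumours were above every control. The highest FFPE control, that of dog 50315, had 5 counts. The log2 fold change was 2.32 ± 0.55 (SE) in FFPE and 4.47 ± 0.81 (SE) in fresh-frozen tissue, the latter 3.20 without the tumour of dog 60749. The difference between both, -1.97 ± 0.90 (SE), did not pass (edgeR interaction, adjusted p = 0.9999). Another gene overlaps it on the same strand, which makes its count uncertain.

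ENSCAFG00000014945 (44796895 to 44801692, plus strand, 5 exons) was lower in tumour. Fresh-frozen tumours lay at 4.16 (dog 60749), 4.65 (dog 60631), 5.45 (dog 60461), 7.06 (dog 60127), 7.90 (dog 60636) and 8.00 log2 CPM (dog 60679), and controls between 8.39 and 9.39, so 6 of 6 tumours were below every control. FFPE tumours ran from 4.21 to 7.37 (median 6.36) and FFPE controls from 6.08 to 9.60 (median 8.45), with 5 of 11 tumours below every control. The log2 fold change was -2.27 ± 0.41 (SE) in FFPE and -2.11 ± 0.60 (SE) in fresh-frozen tissue. A gene on the opposite strand overlaps it.

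ENSCAFG00000019679 (57800740 to 57806246, plus strand, 7 exons) had -2.34 log2 CPM in the fresh-frozen tumour of dog 60749, where it had 1 count. The other fresh-frozen tumours were at 0.14 (dog 60461), 1.11 (dog 60631), 1.56 (dog 60127), 2.67 (dog 60636) and 3.37 (dog 60679), and the controls between 3.13 and 5.19, with 5 of 6 tumours below every control. FFPE tumours ran from 0.54 to 4.70 (median 2.61) and controls from 1.34 to 6.16 (median 4.93), and 2 of 11 tumours were below every control. The lowest FFPE control, that of dog 60462, had 3 counts. The log2 fold change was -2.15 ± 0.48 (SE) in FFPE and -2.50 ± 0.75 (SE) in fresh-frozen tissue, the latter -3.16 without the tumour of dog 60679. The fresh-frozen call was lost without the control of dog 60460 or 60629 or the tumour of dog 60461 or 60631 (edgeR adjusted p = 0.0521 to 0.0543), and a gene overlaps it on the same strand. Both genes were lowest in the fresh-frozen tumour of dog 60749, the tumour with the highest chromosome 20 shift.

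**Figure D5:**
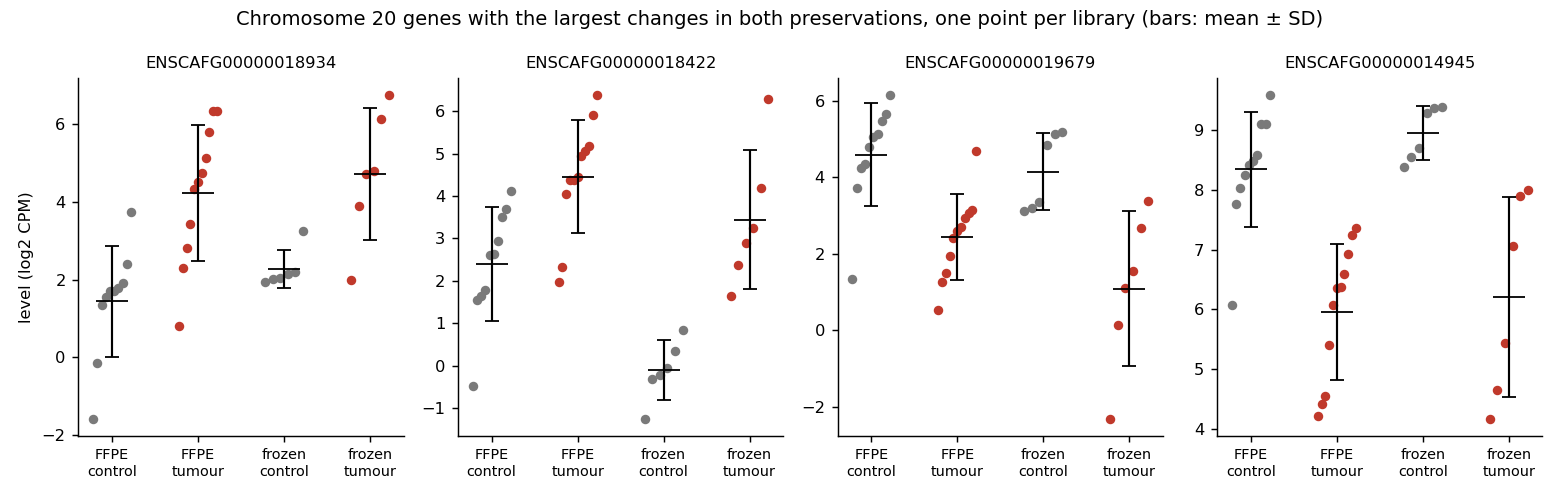
Level (log2 CPM) of 4 chromosome 20 genes in each library of the 4 groups, with the mean and SD as bars. ENSCAFG00000018934 and ENSCAFG00000018422 are higher and ENSCAFG00000019679 and ENSCAFG00000014945 lower in tumour, and in fresh-frozen tissue the groups do not overlap for ENSCAFG00000018422 and ENSCAFG00000014945.

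Set among the 38 autosomes, chromosome 20 was high but not the highest. Its tumour minus control shift ranked 6 in FFPE and 3 in fresh-frozen tissue, and on the density-centred measure 4 and 3. Chromosomes 13 and 35 took ranks 1 and 2 in each case, with density-centred FFPE differences of 0.49 and 0.40 and fresh-frozen differences of 0.57 and 0.41. The SD among FFPE tumours was 0.43 for chromosome 20 on the plain measure, rank 1 and tied with chromosome 22, and 0.29 on the density-centred measure, rank 6. Among fresh-frozen tumours it was 0.34, rank 4, on the plain measure and 0.23, rank 10, on the density-centred measure. The SD among controls ranked 4 in FFPE and 3 in fresh-frozen tissue on the plain measure, and 27 and 7 on the density-centred measure. Chromosome 9, the next in gene density, had density-centred differences of 0.05 in FFPE and 0.03 in fresh-frozen tissue. These ranks were not tested.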

How the data were processed

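The table holds unnormalised fragment counts per gene. The authors counted with featureCounts 1.6.0 over CanFam3.1 exons of Ensembl release 100, at strand option 1 and a minimum mapping quality of 10, per the file headers. The deposited Length column gives exonic base pairs per gene, per the file headers. The submitters' processing notes also name fastp and STAR, without versions. The library kit adds molecular identifiers, per the labels' protocols, and their use in counting is not given, so amplified copies may be counted.

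Each preservation was filtered (filterByExpr), scaled (TMM) and tested with edgeR 4.0.16 in R 4.3.3, with Benjamini-Hochberg adjustment over all genes at 0.05. Log2 CPM used a prior count of 2. DESeq2 1.42.0, limma 3.58.1, other filters and scalings, thinning and left-out libraries were alternatives. Scripts were tested on simulated data. Members, windows and gene rules were chosen with earlier results of these data known, and the density-centred shift after seeing the shifts. The 4 genes named follow a rule: called in the same direction in both preservations, and highest or lowest by the smaller log2 fold change. The RefSeq table at hand paired 0 of 30951 identifiers with a name. Replicates are separate dogs; libraries of a group differed beyond sampling noise (chi-square per degree of freedom 19 to 539). Dog numbers pair samples because they name the same animal, and deviations of the 8 pairs correlated at 0.064 to 0.748.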

Additional observations from a re-analysis of the deposited data

Results flagged for a closer look

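Values far from the rest of their group were looked for in 54 groups of 6 or 10 libraries. The FFPE tumours, with 11 libraries, were not screened. Chance flags about 1 in 20 groups, and 7 such values were found. The FFPE control of dog 60462 accounts for 4 of them. Its density-centred chromosome 20 shift was -0.17 against 0.003 for the nearest control, and in the window from 55 Mb on it was -0.76 against -0.15. In the same library ENSCAFG00000014945 was at 6.08 log2 CPM against 7.77 for the nearest control, and ENSCAFG00000019679 at 1.34 against 3.72. The value of 1.34 rests on 3 counts. Both genes were lower in tumours, and the low end of their FFPE control range is this library. The fresh-frozen control of the same dog was at 8.56 log2 CPM for ENSCAFG00000014945, inside the range of the other fresh-frozen controls, and at 3.13 for ENSCAFG00000019679, the lowest of them.

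The FFPE control of dog 50315, the library with the smallest total, was at -0.45 in the window from 35 to 40 Mb, with the nearest control at -0.14. The FFPE control of dog 60126 was at 0.36 from 5 to 10 Mb, with the nearest control at 0.14. ENSCAFG00000018934 was at 3.26 log2 CPM in the fresh-frozen control of dog 60516, and the nearest control was at 2.21.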

How the results depend on the processing

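The tumour minus control shift stayed positive under each of the 13 alternatives tried in FFPE tissue and the 11 in fresh-frozen tissue, and with each library left out (0.07 to 0.23 in FFPE, 0.31 to 0.50 in fresh-frozen tissue; density-centred 0.14 to 0.24 and 0.29 to 0.41). The FFPE value was 0.04 without the 8 dogs of both preservations and 0.44 in those dogs alone. Counts of called genes varied more. From 127 in FFPE tissue, the count was 192 with DESeq2, 69 after thinning every library to the smallest total, 34 without the 8 dogs of both preservations, and 0 in those 8 dogs alone (edgeR, 133 at an unadjusted p under 0.05; DESeq2 was not run on them), and 104 to 163 with a library left out. From 251 in fresh-frozen tissue, it was 100 after thinning, 19 in the 8 dogs alone, 161 without dogs 60126, 60127, 60461 and 60462, 0 in those 4 libraries alone (edgeR, 194 at an unadjusted p under 0.05; chosen after seeing the data) and 187 to 282 with a library left out. Fewer samples or fewer tested genes are part of each of these alternatives, except DESeq2, for which the cause was not tested. Shares over all genes were not taken under these alternatives, so the counts show nothing particular to chromosome 20.

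For FFPE against fresh-frozen tissue of the same dogs, the fit that did not pair libraries by dog called 9 genes. Shares over all genes were taken only there and with the dog as a block. The count was 22 with DESeq2, 4 at a mean count of at least 50, 5 without the filter, 2 after thinning, 16 with the dog as a block and 1 to 15 with a dog left out; the cause was not tested. The block changed no other call: the interaction stayed at 0 with the dog as an estimated correlation, and the preservation difference in shift was -0.06 without the pairing (exact permutation p = 0.788). That difference ran from -0.10 to 0.009 with a dog left out, above 0 without dog 60679 (0.009). The breed difference ran from -0.24 to 0.06 in tumours, above 0 without dog 50416 (0.06) or dog 60749 (0.01), and from 0.01 to 0.22 in controls. The agreement between preservations ran from r = 0.58 to 0.92 and passed without dog 60679 alone. The interaction count was 0 with each library left out. Thinning left 293 chromosome 20 genes to test in FFPE and 325 in fresh-frozen tissue, and the windows were not recomputed on thinned counts. The 4 genes named kept their calls with each library left out, except ENSCAFG00000019679 in fresh-frozen tissue. That call was lost without 4 of the 12 libraries and without the filter (edgeR adjusted p = 0.0563). After thinning, ENSCAFG00000014945 alone of the 4 passed the filter, and it kept its call in both preservations. The others could not be tested at that depth.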
